A study of Mus musculus with 55 samples.

Results

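The response of the wild-type mouse heart to Wy14643, a synthetic agonist of the nuclear receptor PPARα also known as pirinixic acid, was measured 6 h after a single oral dose. The 4 WT Wy14643 hearts were compared with 3 WT control hearts, which are 7 of the 55 arrays of the series. Every gene with a sufficiently bright probe set was examined, at 1 probe set per gene, the one with the highest mean over all arrays. Of 18193 genes that had their own probe set, 8237 were bright, which means a linear intensity over 20 in 3 or more of the arrays.

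All mice were males of the Sv129 strain on a modified AIN76A run-in diet with olive oil as its fat. Their age is labelled as 9 to 12 weeks for each sample and as 2 to 6 months in the growth protocol. After a 4 h fast each mouse received 400 µL by gavage. WT Wy14643 mice (129S1/SvImJ) were given Wy14643 at 10 mg/mL suspended in 0.5% carboxymethyl cellulose. WT mice given 400 µL of triolein (n = 4), trilinolein (n = 5), trilinolenin (n = 4) or tridocosahexaenoin (n = 5), each a triglyceride of a single fatty acid, were used for a second comparison. WT control mice were given the cellulose vehicle only per the treatment protocol, although their treatment label reads none. KO Wy14643 mice (n = 5) and KO control mice (n = 5) received the same suspension and the same vehicle. KO mice lack PPARα in every cell and are of another substrain, 129S4/SvJae, so genotype and substrain cannot be told apart. Whole hearts were profiled, so fewer cells of a type and less RNA per cell cannot be told apart either. The labels give each sample a replicate number but do not say that each array is a different animal. P-values measure the spread between these arrays.

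PPARα is a transcription factor that is switched on by fatty acids and by fibrate-like drugs. It pairs with RXR and binds PPAR response elements near its target genes. In the heart, which burns mostly fatty acids, its targets include enzymes of mitochondrial and peroxisomal fatty acid oxidation, fatty acid transporters, lipid droplet proteins and the switch that spares glucose, Pdk4.

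The 7 arrays were alike in their overall properties. Median log2 intensity ranged from 2.559 to 2.6 in WT Wy14643 arrays and from 2.554 to 2.589 in WT control arrays, and the correlation between arrays of a group was at least 0.9947. The difference between the 3′ and 5′ Actb probe sets, a measure of RNA integrity, was 0.58 to 0.788 in WT Wy14643 arrays and 0.701 to 0.866 in WT control arrays. Cardiomyocyte markers, all 10 of which were bright, summed to 142700 to 148100 linear units in WT Wy14643 hearts and to 143800 to 147400 in WT control hearts. None of the 7 lymphocyte markers on the array was bright. Ppara itself had a log2 intensity of 8.29 to 8.41 in WT Wy14643 hearts, against 8.00 to 8.46 in WT control hearts. It was 7.11 to 7.60 in KO Wy14643 hearts and 7.36 to 7.61 in KO control hearts, so signal remained on this probe set in KO hearts. Whether the probe set lies in the deleted stretch was not examined.

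The promoter windows of 3 genes are printed, each from 250 bases before to 50 bases after the start of transcription, 5′ to 3′ on the strand of the gene. The sequences are those of RefSeq for build GRCm38.p6. Acot1 and Mlycd are shown because they rose after Wy14643 in WT hearts, and Ucp3 because it is a PPAR target that came near the threshold. These windows were not searched for binding motifs.
Acot1, chr12:84009252-84009551, strand plus: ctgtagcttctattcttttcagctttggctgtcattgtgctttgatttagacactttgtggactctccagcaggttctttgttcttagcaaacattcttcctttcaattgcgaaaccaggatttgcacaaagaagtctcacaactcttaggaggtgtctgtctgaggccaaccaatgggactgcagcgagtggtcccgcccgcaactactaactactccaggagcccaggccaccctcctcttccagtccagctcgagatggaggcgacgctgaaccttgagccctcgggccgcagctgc
Mlycd, chr8:119394644-119394943, strand plus: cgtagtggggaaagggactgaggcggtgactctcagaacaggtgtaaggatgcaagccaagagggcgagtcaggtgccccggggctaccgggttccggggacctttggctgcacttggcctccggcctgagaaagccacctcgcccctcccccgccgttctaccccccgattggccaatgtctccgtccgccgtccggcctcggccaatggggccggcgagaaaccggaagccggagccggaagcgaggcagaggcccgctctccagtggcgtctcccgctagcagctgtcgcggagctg
Ucp3, chr7:100472741-100473040, strand plus: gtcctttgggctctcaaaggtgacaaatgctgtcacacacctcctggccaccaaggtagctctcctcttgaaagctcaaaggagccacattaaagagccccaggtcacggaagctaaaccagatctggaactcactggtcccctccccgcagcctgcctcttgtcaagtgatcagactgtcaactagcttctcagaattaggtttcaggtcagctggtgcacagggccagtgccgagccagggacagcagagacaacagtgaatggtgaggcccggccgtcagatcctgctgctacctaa

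Limma called 5 genes in WT hearts, of which 4 rose with Wy14643 and 1, too dim to be measured reliably, was lower. The risen genes were Angptl4, an inhibitor of lipoprotein lipase, Acot1, a cytosolic enzyme that splits long-chain acyl-CoA, Abhd1, a poorly characterised member of the α/β-hydrolase family, and Mlycd, malonyl-CoA decarboxylase. Their increases ranged from 1.72-fold for Mlycd to 4.51-fold for Angptl4. The dim gene, Frem2, encodes an extracellular matrix protein of basement membranes. At a limma adjusted p under 0.05 these 5 genes were 0.0607% of the 8237 tested, with 4 higher (0.0486%) and 1 lower (0.0121%). An unadjusted p under 0.05 was reached by 614 genes (7.45%), of which 264 were higher (3.21%) and 350 lower (4.25%).

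Acot1 had log2 intensities of 8.58, 8.65, 8.86 and 8.80 in the 4 WT Wy14643 hearts, against 6.73, 7.10 and 6.56 in the 3 WT control hearts. Every treated heart lay well above every control heart, and the treated hearts differed from each other by less than the control hearts did. The log2 difference was 1.93 ± 0.36 (SE), a 3.81-fold increase, with a limma adjusted p of 0.0122. Acot1 and Acot2 are close paralogs next to each other in the genome, and how far their probes cross-hybridise was not tested.

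Angptl4 had log2 intensities of 8.76, 8.17, 7.75 and 8.03 in WT Wy14643 hearts, against 6.25, 6.46 and 5.30 in WT control hearts. The groups did not overlap, and control replicate 3 was the lowest of all. The log2 difference was 2.17 ± 0.46 (SE), with a limma adjusted p of 0.0409. Without control replicate 3 the log2 difference was 1.82 and the adjusted p 0.243. A second Angptl4 probe set was dim, with means of 1.57 in WT Wy14643 hearts and 1.52 in WT control hearts, and averaging both gave 1.11 with an adjusted p of 0.0587.

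Mlycd removes malonyl-CoA, which blocks the entry of long-chain fatty acids into mitochondria at carnitine palmitoyltransferase 1. Its log2 intensities were 8.42, 8.30, 8.55 and 8.82 in WT Wy14643 hearts, against 7.67, 7.89 and 7.67 in WT control hearts. The lowest treated heart exceeded the highest control heart, and the log2 difference was 0.78 ± 0.16 (SE; limma adjusted p = 0.0194). Acacb, the acetyl-CoA carboxylase that makes malonyl-CoA at mitochondria, was looked up after its value had been seen. It read 9.71, 9.93, 10.00 and 9.99 on its probe set in WT Wy14643 hearts and 9.50, 9.66 and 9.49 in WT control hearts. The hearts of the groups did not overlap for Acacb, but the log2 difference of 0.35 ± 0.09 (SE) did not pass (limma adjusted p = 0.152).

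Abhd1 had log2 intensities of 9.34, 8.84, 9.09 and 9.29 in WT Wy14643 hearts, against 8.20, 8.26 and 7.90 in WT control hearts. All treated hearts were higher, by a mean of 1.02 ± 0.19 (SE; limma adjusted p = 0.0122). In the RefSeq gene table Abhd1 overlaps Preb, and which transcript the probes read was not tested. Mlycd likewise overlaps 2 predicted genes there.

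Frem2 was dim throughout. It had log2 intensities of 3.48, 3.46, 3.39 and 3.41 in WT Wy14643 hearts, against 4.35, 4.21 and 4.22 in WT control hearts. The log2 difference was -0.82 ± 0.16 (SE; limma adjusted p = 0.0194). Both means were under the brightness minimum of 4.32. Only 3 of 55 arrays exceeded it, 1 of WT control and 2 of WT triglyceride hearts and 0 of Wy14643 hearts. Frem2 was thus tested only because of groups in which it is higher, and its call and size are not support for a fall.

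How many genes passed depended on single hearts. Without control replicate 1, control replicate 3 or Wy14643 replicate 4, limma called 0 genes, while 9 were called without control replicate 2 and 16 without Wy14643 replicate 1. It called 8 without Wy14643 replicate 3 and 4 without Wy14643 replicate 2. Over these 7 fits the log2 difference of Acot1 ranged from 1.81 to 2.08, that of Mlycd from 0.68 to 0.85, that of Abhd1 from 0.91 to 1.12, that of Frem2 from -0.85 to -0.78 and that of Angptl4 from 1.82 to 2.40. Each kept its sign while its adjusted p crossed 0.05.

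**Figure D1:**
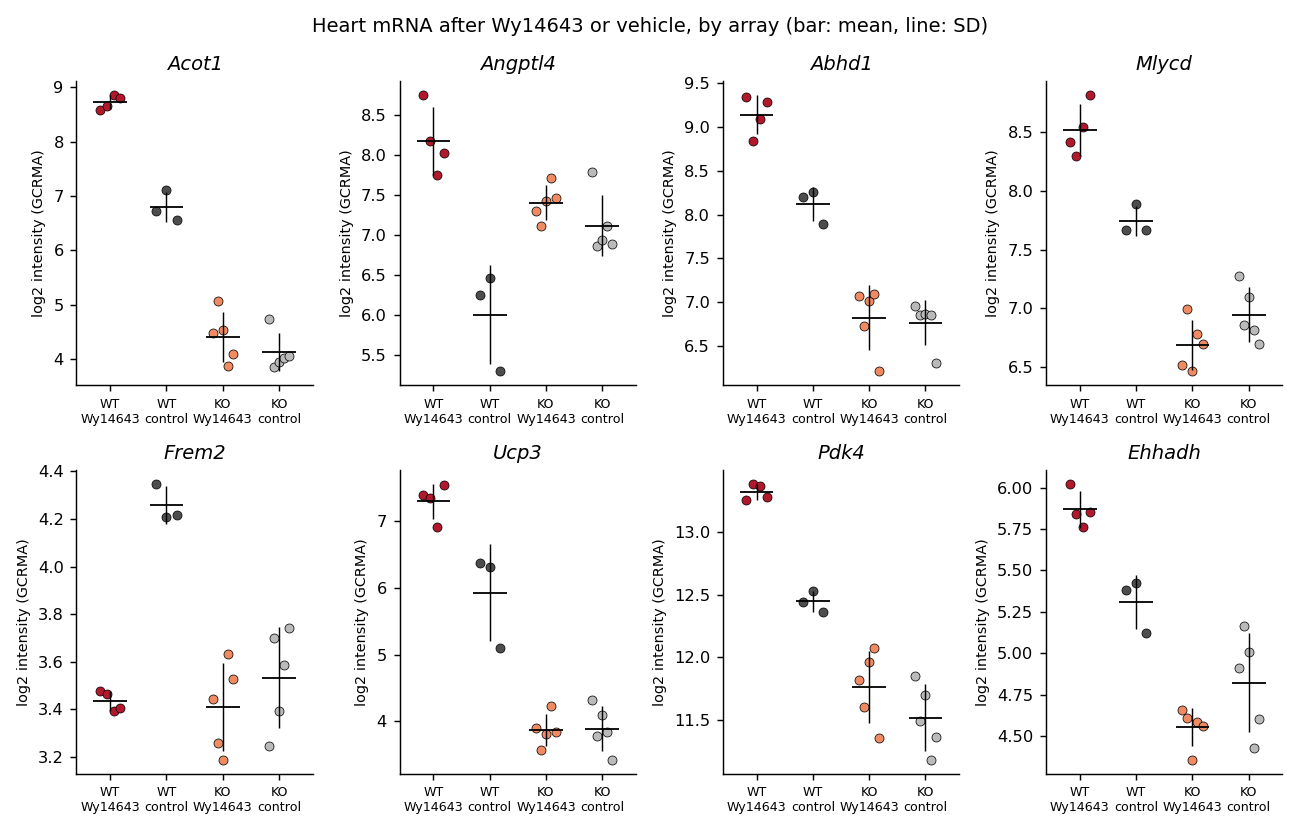
Log2 intensity (y axis) of 8 genes in each WT Wy14643, WT control, KO Wy14643 and KO control heart (x axis). Points are arrays, horizontal bars are group means and vertical lines are SDs. In WT hearts the Wy14643 points stand apart from the control points for all 8 genes, above them for 7 and below them for Frem2. The KO Wy14643 and KO control points overlap, and none of them exceeds the brightness minimum for Ucp3 or Frem2.

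A further 13 genes had an adjusted p between 0.05 and 0.1, and they are named here after their values had been seen. Ucp3, a mitochondrial carrier that rises with fatty acid load, had log2 intensities of 7.38, 7.34, 6.90 and 7.53 in WT Wy14643 hearts, against 6.37, 6.30 and 5.09 in WT control hearts. All treated hearts were higher, and control replicate 3 was again the lowest. The log2 difference was 1.36 ± 0.32 (SE; limma adjusted p = 0.0702). A second Ucp3 probe set gave 1.40, but there the treated and control hearts overlapped.

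Slc25a42, which carries CoA into mitochondria, read 8.75, 8.48, 8.40 and 8.46 in WT Wy14643 hearts and 7.93, 8.24 and 7.77 in WT control hearts, all on the log2 scale. The groups did not overlap, with a log2 difference of 0.54 ± 0.13 (SE; limma adjusted p = 0.0702). Pank1, which catalyses the first step of CoA synthesis and lies just outside that range, was also picked after its value had been seen. It differed by 0.36 ± 0.09 (SE; limma adjusted p = 0.102) without overlap. Gpam, the mitochondrial acyltransferase that begins triglyceride synthesis, differed by 0.35 ± 0.09 (SE; limma adjusted p = 0.0783). Hsd17b11, an enzyme found on lipid droplets, had means of 9.39 ± 0.11 in WT Wy14643 hearts and 8.85 ± 0.15 in WT control hearts (SD, n = 4 and 3; limma adjusted p = 0.054).

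The others with higher treated hearts were Adam19, a membrane metalloprotease (log2 difference 1.55), Tmem82 (1.09), the galectin Lgals4 (0.79), Cnksr3 (0.66), the amino acid transporter Slc38a2 (0.51) and Oser1 (0.30). Those with lower treated hearts were the zinc finger gene Zfp30 (-1.07), Akip1 (-0.48) and Slc25a13, a mitochondrial aspartate and glutamate carrier (-0.33). On the probe set used for each gene, WT Wy14643 and WT control hearts did not overlap for any of the 13 genes. Over all tested genes, every Wy14643 heart lay above every control heart for 280 (3.4%) and below for 355 (4.31%).

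PPAR target genes were mostly above their control level in WT hearts. Of 42 genes 36 were on the array with a probe set of their own, and 31 were bright enough to test. Not tested were 5 dim genes, Cyp4a14, Fgf21, Vnn1, Creb3l3 and Hilpda, and 6 without such a probe set, among them Acsl1, Cpt1b, Ucp2 and Cyp4a10. Limma called 3 of these 31, Angptl4, Acot1 and Mlycd, all higher, against 0.0607% of all tested genes. The log2 difference was above 0 for 29 of the 31, against 44.1% of all tested genes. For 15 of the 31 every Wy14643 heart exceeded every control heart, against 3.4% of all tested genes, and for 0 the reverse held. The median log2 difference was 0.175 for the list and -0.018 for all tested genes. This list, like the others, was chosen with earlier results of these data known. Its counts beside those of all tested genes are thus a description and not a test. Each of the 7 arrays was left out in turn, a check added after the data had been seen. This gave 25 to 30 members above 0, against 41.1% to 46.8% of all tested genes. From 15 to 18 members were without overlap, against 4.81% to 8.45% of all tested genes. Leaving out an array cannot make a gene overlap, so this second count could not fall below 15. The count of 25 came without control replicate 3.

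Heart by heart, the median PPAR target stood 0.217, 0.174, 0.147 and 0.152 above the control mean in WT Wy14643 hearts on the log2 scale. The same median was 0.026, 0.086 and -0.089 in WT control hearts. All treated hearts were above all control hearts for the list, by a margin smaller than the differences of its leading genes.

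Among PPAR targets that act on fuel choice, Pdk4, the kinase that shuts off pyruvate dehydrogenase, was 13.25, 13.39, 13.37 and 13.28 in WT Wy14643 hearts, against 12.44, 12.53 and 12.36 in WT control hearts. These log2 values were tight within each group and far apart between groups. The difference of 0.87 ± 0.25 (SE) nevertheless did not pass when the spread was taken from all 12 groups (limma adjusted p = 0.219), and it was called when only the 2 groups compared were fitted. Pdk1 and Pdk2, other kinases of the same complex, differed by -0.05 and 0.02. Of 28 genes of pyruvate dehydrogenase and glucose use, 10 were above 0, against 44.1% of all tested genes, with a median of -0.031. Limma called 0 of them, and 2 had an unadjusted p under 0.05, both higher, against 3.21% of all tested genes. The list includes Pdk4.

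Among the enzymes of mitochondrial fatty acid oxidation, 1 of 25 tested genes was called, Mlycd, against 0.0607% of all tested genes. Of these 25 genes, 13 are also on the PPAR target list. So are 4 of 17 peroxisomal genes, 8 of 23 uptake and droplet genes, 1 of 13 synthesis genes and 2 of 14 carriers described below. The counts of these lists are thus not separate from those of the PPAR targets. The log2 difference was above 0 for 16, against 44.1% of all tested genes, with a median of 0.058. A limma unadjusted p under 0.05 was reached by 5 higher genes and 1 lower gene, against 3.21% and 4.25% of all tested genes. Every Wy14643 heart was above every control heart for 6 of the 25, against 3.4% of all tested genes, and below for 1, Mcee (-0.17), against 4.31%. Cpt2, the inner membrane carnitine palmitoyltransferase, read 11.09, 11.06, 11.02 and 11.08 in WT Wy14643 hearts and 10.90, 10.89 and 10.83 in WT control hearts, without overlap. Its log2 difference was 0.19 ± 0.07 (SE; limma adjusted p = 0.495), and that of Slc25a20, the carnitine and acylcarnitine carrier, was also 0.19. The acyl-CoA dehydrogenases Acadm and Acadl, at log2 intensities over 12, differed by 0.03 ± 0.05 and -0.00 ± 0.05 (SE). Cpt1a, the form of the gatekeeper enzyme that is less prominent in adult heart, differed by 0.07 ± 0.19. Cpt1b, the muscle form, was not analysed here.

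Acot2, the mitochondrial paralog of Acot1, gave unequal answers on its probe sets. On the brightest one the log2 intensities were 9.02, 8.63, 8.69 and 8.26 in WT Wy14643 hearts and 8.08, 8.42 and 8.11 in WT control hearts, which overlap. The log2 difference there was 0.45 ± 0.19 (SE; limma adjusted p = 0.626). A second probe set averaged 7.71 in WT Wy14643 hearts and 5.73 in WT control hearts, a difference of 1.97 without overlap. That value is close to the difference of Acot1.

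In peroxisomal lipid metabolism 10 of 17 genes were above 0, against 44.1% of all tested genes, with a median log2 difference of 0.045. Limma called 0 of them, and 5 had an unadjusted p under 0.05, all higher, against 3.21% of all tested genes. Ehhadh, the bifunctional enzyme of peroxisomal β-oxidation, was 6.02, 5.84, 5.76 and 5.85 in WT Wy14643 hearts, against 5.38, 5.42 and 5.13 in WT control hearts. The groups were apart, with a log2 difference of 0.56 ± 0.19 (SE; limma adjusted p = 0.382). The catalase gene Cat differed by 0.22 and the peroxisomal ATP-binding transporter Abcd3 by 0.19, both without overlap. Pex11a, a peroxisome division factor, differed by 0.34 with overlap.

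Genes that take up fatty acids or store them in droplets were mixed. Angptl4 was the 1 called member of 23, against 0.0607% of all tested genes. For 15 the log2 difference was above 0, against 44.1% of all tested genes, and the median was 0.050. The perilipins, which coat lipid droplets, had differences of 0.48 for Plin5, 0.53 for Plin4 and 0.31 for Plin2, each without overlap, and of -0.01 for Plin3. Plin5 read 10.31, 10.50, 10.56 and 10.68 in WT Wy14643 hearts against 10.00, 10.03 and 10.07 in WT control hearts. The hormone-sensitive lipase gene Lipe differed by 0.61 with overlap. The high-level uptake genes Lpl, Cd36 and Fabp3 differed by 0.02, 0.01 and 0.07, with SEs of 0.04, 0.06 and 0.04. For Slc27a1, a fatty acid transport protein, the difference was 0.38 ± 0.14 (SE; limma adjusted p = 0.500).

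In triglyceride and phospholipid synthesis 10 of 13 genes were above 0, against 44.1% of all tested genes. Limma called 0 of them, and 2 had an unadjusted p under 0.05, both higher, against 3.21% of all tested genes. The 2 largest differences were those of Agpat2 (0.40) and Gpam (0.35), which catalyse consecutive steps of glycerolipid synthesis. Agpat2 read 8.39, 8.71, 8.62 and 8.75 in WT Wy14643 hearts, against 8.25, 8.23 and 8.18 in WT control hearts, without overlap. Of 14 mitochondrial carriers 9 were above 0, against 44.1% of all tested genes, with a median of 0.094. Slc25a34, a carrier of unsettled substrate, differed by 0.51 (limma adjusted p = 0.101) without overlap, whereas the abundant ATP, phosphate and oxoglutarate carriers Slc25a4, Slc25a3 and Slc25a11 differed by -0.04, 0.00 and -0.02.

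Receptors and coregulators included Ppargc1a, the coactivator of mitochondrial genes. On the brightest of its 5 probe sets it read 8.92, 10.14, 9.95 and 9.51 in WT Wy14643 hearts, against 8.85, 9.05 and 9.25 in WT control hearts. Wy14643 replicate 1 lay within the control range there and the other 3 hearts above it, with a log2 difference of 0.58 ± 0.20 (SE; limma adjusted p = 0.388). The other probe sets of Ppargc1a gave 0.69 and 0.55 with overlap, and 0.41 and 0.74 without. Rxra, the partner receptor, differed by 0.14 and Ppard by -0.03. Fgf21, a hormone gene that PPARα drives in liver, was on the array but not bright in these hearts, at 1.89 to 2.10 in WT Wy14643 hearts and 1.97 to 2.23 in WT control hearts.

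Lists of the basic machinery of the heart lay close to the median of all genes. The median log2 difference was -0.010 over 21 genes of oxidative phosphorylation, -0.002 over 16 genes of the tricarboxylic acid cycle and -0.026 over 25 contractile and calcium handling genes. Limma called 0 members of these 3 lists, and 1, 0 and 0 members in that order had an unadjusted p under 0.05. The largest difference among the contractile genes was that of Tcap, at -0.12.

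**Figure D2:**
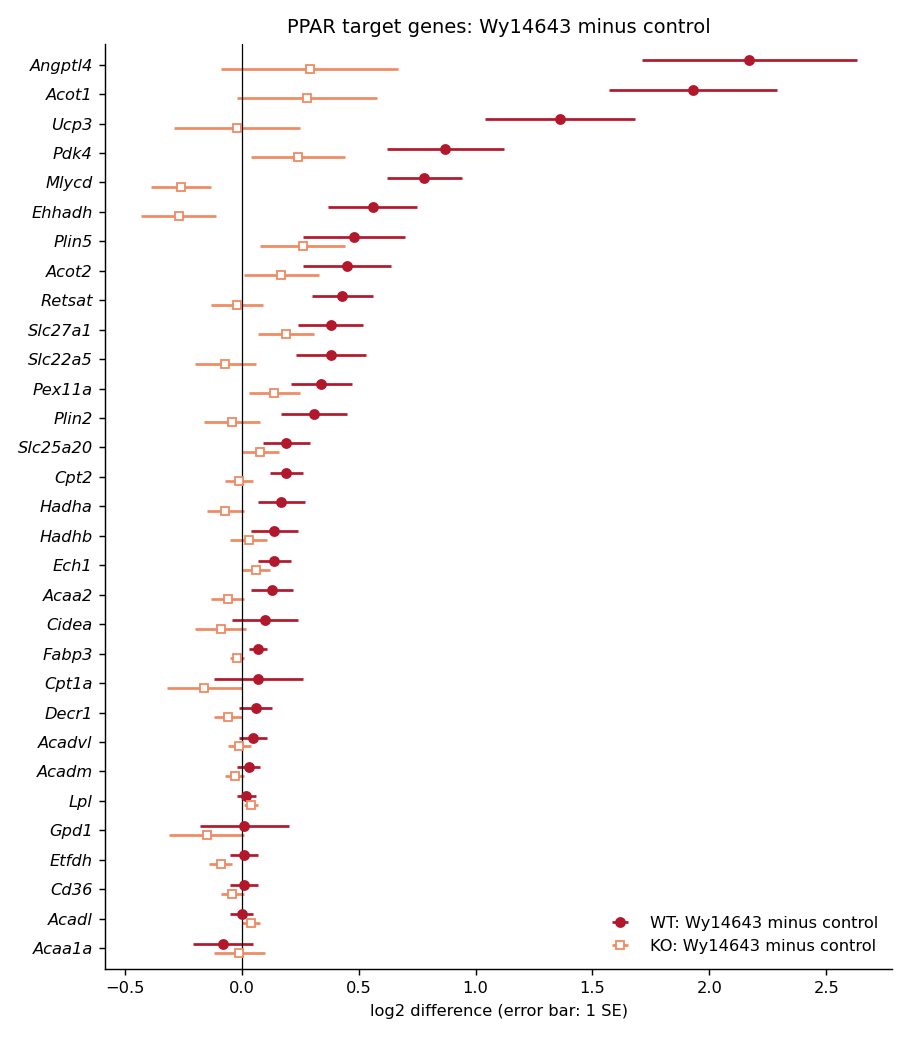
Log2 difference between Wy14643 and control (x axis, error bars 1 SE) for the 31 tested PPAR target genes (y axis), in WT hearts (filled circles) and KO hearts (open squares). In WT hearts 29 of 31 genes lie above 0, and in KO hearts 12 of 31 do. The list was chosen with earlier results of these data known.

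Hearts of the same group differed widely in genes that respond to glucocorticoids. Of 23 such genes tested, Angptl4 was the only one called, against 0.0607% of all tested genes. For 22 the log2 difference was above 0, against 44.1% of all tested genes, and the median was 0.199. The heart by heart medians were -0.229, 0.466, 0.386 and 0.293 in WT Wy14643 hearts, against -0.292, -0.015 and 0.341 in WT control hearts, so the groups overlapped widely. Zbtb16, a transcription factor gene induced by glucocorticoids, read 8.33, 9.99, 9.84 and 10.07 in WT Wy14643 hearts and 7.63, 8.34 and 9.34 in WT control hearts. Fkbp5, the glucocorticoid receptor chaperone, was picked after its values had been seen. It read 6.52, 8.40, 8.42 and 8.11 in WT Wy14643 hearts and 6.10, 6.74 and 8.12 in WT control hearts. Wy14643 replicate 1 was at the level of the low control hearts for both genes, and control replicate 3 near the level of the high treated hearts. The part of this variation in other results was not tested. For the 4 risen genes, Wy14643 replicate 1 was not the lowest treated heart except for Acot1.

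**Figure D3:**
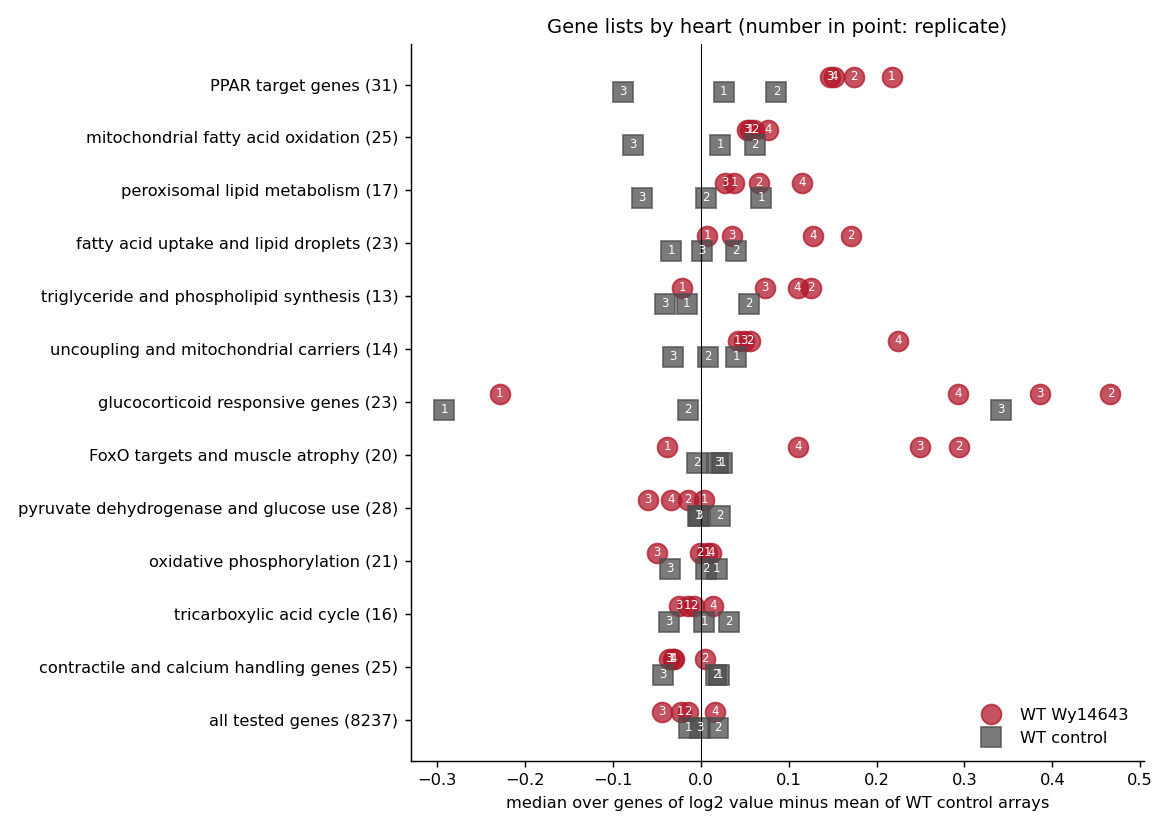
Median over the genes of a list of the log2 value minus the mean of the WT control arrays (x axis), for each WT Wy14643 heart (circles) and WT control heart (squares), with the replicate number in the point and the number of tested genes after the name of the list. PPAR target genes separate the groups, glucocorticoid responsive genes spread from -0.292 to 0.466 without doing so, and all tested genes stay between -0.044 and 0.019.

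**Figure D4:**
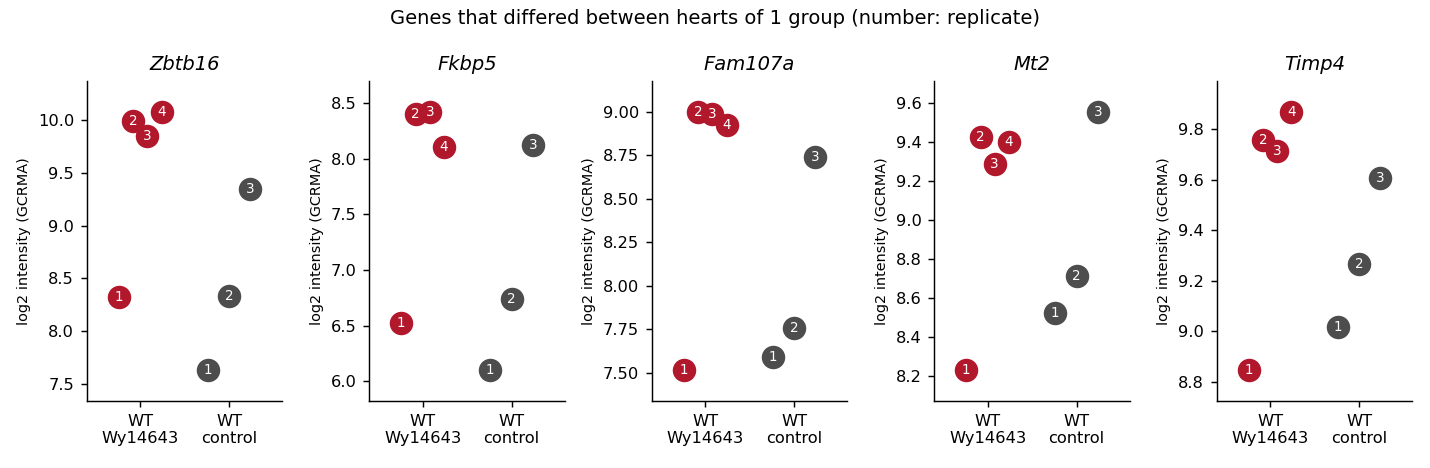
Log2 intensity (y axis) of 5 genes in each WT Wy14643 heart and WT control heart (x axis), with the replicate number in the point. Wy14643 replicate 1 lies below the other Wy14643 hearts for all 5 genes and control replicate 3 above the other control hearts. The 5 genes drawn are those flagged below because Wy14643 replicate 1 lay far from the other treated hearts. Its low place is thus not independent of their choice.

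Among FoxO targets and atrophy genes 14 of 20 were above 0, against 44.1% of all tested genes, with a median of 0.132. Limma called 0 of them, and 6 had an unadjusted p under 0.05, all higher, against 3.21% of all tested genes. Every Wy14643 heart was above every control heart for 5 of the 20, against 3.4% of all tested genes, and below for 1, the autophagy gene Atg12 (-0.19), against 4.31%. Among the 5 were the muscle ubiquitin ligase genes Trim63 (0.30) and Fbxo32 (0.25). In KO hearts 18 of the 20 were above 0, against 42.0% of all tested genes, with a median of 0.166. Of 22 immediate early genes 18 were above 0, against 44.1% of all tested genes, with a median of 0.176. Limma called 0 of them, and 3 had an unadjusted p under 0.05, all higher, against 3.21% of all tested genes. Every Wy14643 heart was above every control heart for 3 of the 22, against 3.4% of all tested genes. Myc differed by 0.97 and Nr4a3, an orphan nuclear receptor gene, by 0.96 (limma adjusted p = 0.715), both without overlap. Nr4a3 exceeded the brightness minimum in 3 of 4 WT Wy14643 hearts and 0 of 3 WT control hearts, so the size of its difference is not exact.

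Markers of other cell types were examined as whole lists. For 8 smooth muscle and pericyte markers the median log2 difference was 0.119, and 5 were above 0, against 44.1% of all tested genes. The lowest member differed by -0.07. Limma called 0 of the 8. An unadjusted p under 0.05 was reached by 3, all higher, against 3.21% of all tested genes. They were Myh11 (0.78), Cnn1 (0.73) and Tagln (0.68). The summed intensity of all 9 such markers on the array, the 8 bright ones included, was 4422 to 5296 in WT Wy14643 hearts. It was 4448 to 5317 in WT control hearts. The adipocyte markers summed to 8251 to 8720 in WT Wy14643 hearts, against 9578 to 9756 in WT control hearts, and only 3 of 10 were bright. Of these Fabp4, which endothelial cells of the heart also express, differed by -0.20, and Adipoq was not bright. Atrial markers varied between hearts, with medians of 1.409, -0.305, 1.009 and -0.193 relative to the control mean in WT Wy14643 hearts and of 0.234, -0.337 and 0.118 in WT control hearts. The part of these cells in the gene differences was not tested.

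Hearts without PPARα were examined for the same response. None of the genes called in WT hearts was called in KO hearts. Acot1 read 4.47, 5.06, 4.53, 3.87 and 4.08 in KO Wy14643 hearts, against 4.73, 3.85, 3.94, 4.02 and 4.06 in KO control hearts, close to the brightness minimum and overlapping. Angptl4 read 7.30, 7.12, 7.43, 7.71 and 7.47 in KO Wy14643 hearts and 7.79, 6.87, 6.94, 7.11 and 6.89 in KO control hearts. Its KO difference was 0.29 (limma adjusted p = 0.865), and the KO control level was above that of WT control hearts. Mlycd read 6.52, 6.99, 6.46, 6.78 and 6.69 in KO Wy14643 hearts, against 7.27, 6.86, 7.09, 6.81 and 6.69 in KO control hearts, a difference of -0.26 (limma adjusted p = 0.513).

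For PPAR target genes the KO comparison had 12 of 31 members above 0, against 42.0% of all tested genes, and a median of -0.017. Every KO Wy14643 heart exceeded every KO control heart for 0 of the 31, against 1.02% of all tested genes. The KO groups hold 5 hearts each, so non-overlap is harder to reach there than with 4 and 3.

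The difference of the Wy14643 effect, WT minus KO, was tested directly. Limma called 0 of 8237 genes (0.0%), 362 had an unadjusted p under 0.05 (4.39%), and the alternative fits called 0 to 2. Mlycd came nearest, with a difference of effects of 1.04 ± 0.20 (SE, log2; limma adjusted p = 0.0517). Over the 25 alternative fits of Mlycd the adjusted p ranged from 0.011 to 0.384. Slc25a42 followed with 0.71 ± 0.17 (SE; limma adjusted p = 0.402). The differences of effects were 1.89 ± 0.60 for Angptl4, 1.65 ± 0.47 for Acot1, 0.96 ± 0.25 for Abhd1, 1.38 ± 0.42 for Ucp3 and -0.70 ± 0.21 for Frem2 (SE), with limma adjusted p between 0.505 and 0.794. None of these differences between genotypes passed. Ucp3 exceeded the brightness minimum in 0 of 5 KO Wy14643 and 0 of 5 KO control hearts, and Acot1 in 3 of 5 and 1 of 5. The sizes of their KO effects and of their differences of effects are thus not exact. Of the 31 PPAR targets 28 had a difference of effects above 0, against 51.2% of all tested genes, with a median of 0.190 against 0.005. This comparison uses the same 7 WT arrays as the WT comparison.

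Between KO Wy14643 and KO control hearts limma called 6 genes (0.0728%), 4 higher (0.0486%) and 2 lower (0.0243%), and 814 had an unadjusted p under 0.05 (9.88%). Zbtb16 averaged 9.61 ± 0.30 in KO Wy14643 hearts and 7.91 ± 0.83 in KO control hearts (SD, n = 5 each), a log2 difference of 1.70 ± 0.32 (SE; limma adjusted p = 0.0225). Its WT difference was 1.12 (limma adjusted p = 0.373). Fam107a, a stress-induced actin-binding protein gene, rose by 1.49, the metalloprotease inhibitor gene Timp4 by 0.67 and Rhobtb1 by 0.57. Cxxc5 fell by 0.65. Myorg had a difference of -0.78, with both means under the brightness minimum. It exceeded that minimum in 0 of 5 KO Wy14643 hearts and 3 of 5 KO control hearts, and in 4 of all 55 arrays, so it too was tested only through groups in which it is higher. In WT hearts these 5 genes had differences of 0.57, 0.25, 0.46, -0.50 and -0.31 in that order, none of them called, and no difference between the genotypes passed. The glucocorticoid list had 21 of 23 members above 0 in KO hearts, against 42.0% of all tested genes, with a median of 0.303. Leaving out single KO hearts gave 0 to 28 called genes, 28 without control replicate 5, 1 without control replicate 1 or 4, 2 without control replicate 2 or Wy14643 replicate 5, and 0 without control replicate 3 or Wy14643 replicate 2, 3 or 4.

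Against the mean of the 4 triglycerides, which deliver natural fatty acids at the same gavage volume but without the cellulose vehicle, WT Wy14643 hearts differed in 286 genes (3.47%), 179 higher (2.17%) and 107 lower (1.3%). Dose and chemical form differ between these treatments, and the same 4 Wy14643 hearts serve in both WT comparisons. Leaving out 1 Wy14643 heart gave 160, 189, 163 and 158 calls for replicates 1 to 4. Leaving out 1 triglyceride heart gave 242 to 323.

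Acot1 averaged 8.72 ± 0.13 in WT Wy14643 hearts (n = 4), against 7.91 ± 0.35 with triolein (n = 4), 7.69 ± 0.11 with trilinolein (n = 5), 7.69 ± 0.49 with trilinolenin (n = 4) and 6.95 ± 0.54 with tridocosahexaenoin (n = 5; SD). It was 1.16 higher with Wy14643 than with the triglycerides on average (log2; limma adjusted p = 0.00586), and the lowest Wy14643 heart exceeded every triglyceride heart. Mlycd was 0.47 higher (limma adjusted p = 0.0113), Slc25a42 0.39 higher (limma adjusted p = 0.00925) and Ppargc1a 0.76 higher (limma adjusted p = 0.00134). Frem2 had a difference of -0.49 (limma adjusted p = 0.00985), but 0 of the 4 Wy14643 hearts and 2 of the 18 triglyceride hearts were above the brightness minimum, so this call has the same limit as before.

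Other PPAR targets did not separate Wy14643 from the triglycerides. Ucp3 averaged 7.29 ± 0.27 with Wy14643, 7.36 ± 0.31 with triolein, 7.21 ± 0.18 with trilinolein, 7.23 ± 0.28 with trilinolenin and 6.12 ± 0.82 with tridocosahexaenoin (SD), a difference of 0.31 from their mean (limma adjusted p = 0.563). Angptl4 averaged 8.18 ± 0.42 with Wy14643, 8.32 ± 0.76 with triolein, 8.17 ± 0.69 with trilinolein, 7.77 ± 0.89 with trilinolenin and 6.30 ± 0.94 with tridocosahexaenoin (SD; difference 0.54, limma adjusted p = 0.453). For both genes the Wy14643 mean lay within 1 SD of the triolein and trilinolein means, and tridocosahexaenoin hearts were lowest and most variable. Abhd1, which is not on the PPAR target list, had a difference of 0.27 (limma adjusted p = 0.328). Of the 31 PPAR targets limma called 2 in this comparison, Acot1 and Mlycd, against 3.47% of all tested genes. The difference was above 0 for 24 of them, against 51.5% of all tested genes, with a median of 0.042.

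**Figure D5:**
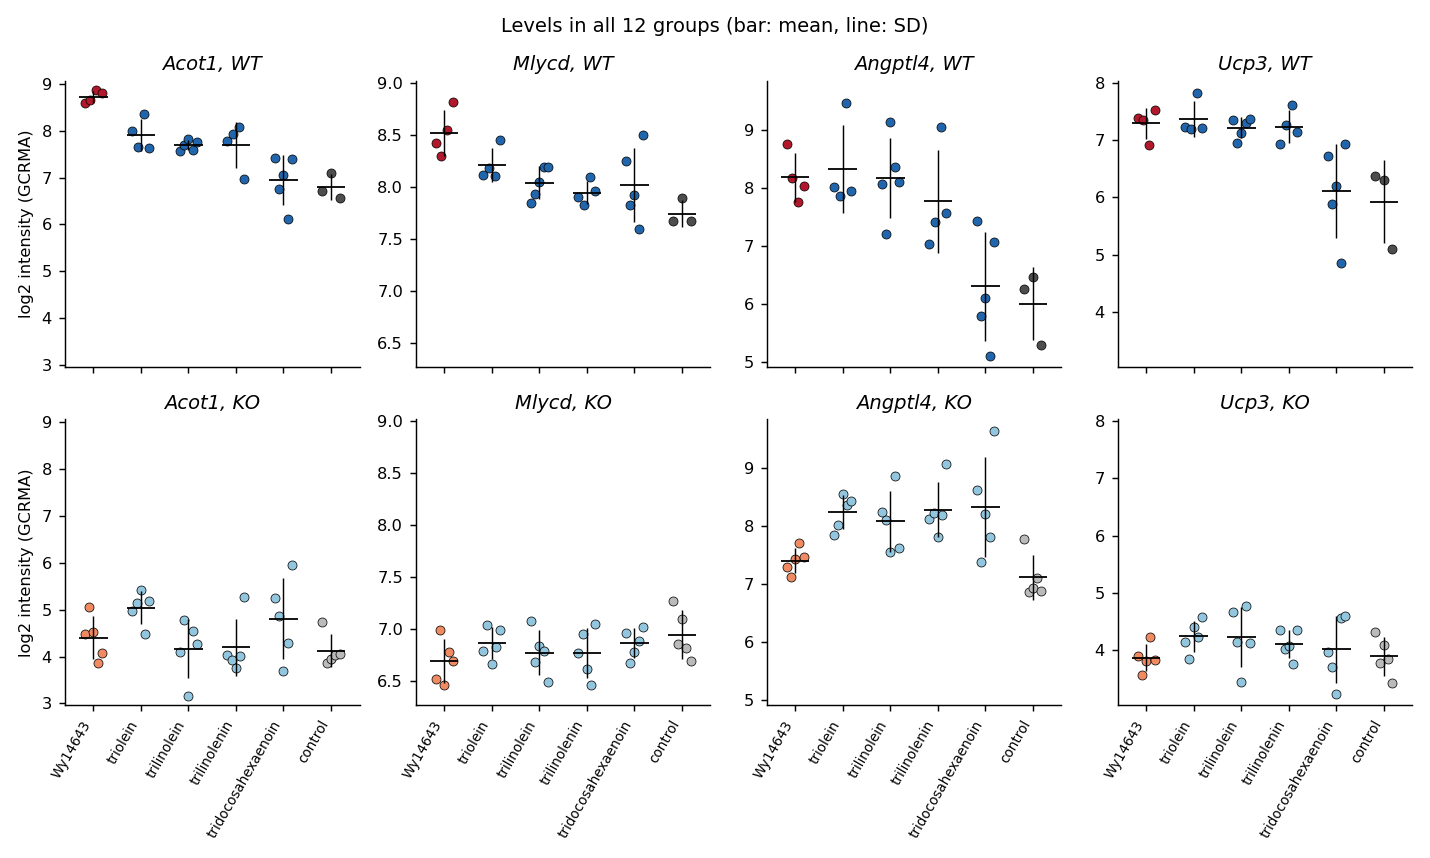
Log2 intensity (y axis) of Acot1, Mlycd, Angptl4 and Ucp3 in each heart of the 6 WT groups (top) and 6 KO groups (bottom), by gavage (x axis). Points are arrays, horizontal bars are means and vertical lines are SDs. All WT Wy14643 hearts lie above all WT triglyceride hearts for Acot1 but not for Mlycd, Angptl4 or Ucp3.

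The 5 largest called differences from the triglycerides in each direction are given next. Higher with Wy14643 were Adam19 (log2 difference 1.77), the immediate early nuclear receptor genes Nr4a1 (1.73) and Nr4a3 (1.42), the stress-induced factor Atf3 (1.57) and Nppb, the gene of B-type natriuretic peptide (1.20). Nr4a1 read 8.72, 8.84, 8.46 and 8.38 in WT Wy14643 hearts, and 8.23, 8.63 and 8.68 in WT control hearts, so Wy14643 and vehicle hearts overlapped for it. Its difference from vehicle was 0.09, that of Nppb was 0.27, and that of Atf3 was 0.85 with overlap. Atf3 and Nr4a3 were each above the brightness minimum in 3 of 4 WT Wy14643 hearts and 1 of 18 WT triglyceride hearts, so the sizes of their differences are not exact. Lower with Wy14643 than with the triglycerides were the endothelial tight junction gene Cldn5 (-1.15), the lysosomal transporter gene Slc46a3 (-1.05), the metallothionein gene Mt2 (-0.99), Chd6 (-0.97) and Dixdc1 (-0.93). Dixdc1 was above the brightness minimum in 0 of 4 WT Wy14643 hearts and 11 of 18 WT triglyceride hearts, and in no control heart, so it was tested only through triglyceride hearts and its value is not exact. The differences of these 5 genes from vehicle were -0.64, -0.39, 0.16, -0.42 and -0.14 in that order, none of them called.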

How the data were processed

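Arrays of mouse heart RNA were deposited as log2 intensities made with GCRMA 2.2.0, per the submitters' processing notes, which corrects background, normalises across arrays and summarises probes. The scanner software is not given in the sources used here. Genes were named from GEO's platform annotation, and probe sets with 1 symbol were used. Models were fitted on the deposited log2 values in R 4.3.3 with limma 3.58.1 (lmFit and eBayes), with 1 mean for each of 12 groups over all 55 arrays (43 residual and 3.255 prior degrees of freedom). P-values were adjusted by Benjamini and Hochberg over 8237 genes, with a threshold of 0.05 for calls. The fit was checked on simulated data.

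The rule named up to 14 called genes in each direction without overlap in WT, 24 index genes, up to 6 called members of each of 30 lists, and 5 called genes in each direction in KO and against the triglycerides. Genes with only clone or model names were counted but not named. Fkbp5, Pank1, Acacb, Agpat2 and Slc25a34 were added after their values had been seen. Members and lists were chosen with earlier results of these data known. A list is described by its counts and median, without a test. The alternatives changed the brightness minimum, the probe set rule, the normalization, the array weights, the variance prior, the replicate block, the arrays fitted and each array left out. The number of arrays limits the precision.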

Additional observations from a re-analysis of the deposited data

Results flagged for a closer look

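Within groups of 4 or 5 hearts, 10 of 144 gene and group combinations examined held 1 heart far from the others by Dixon's criterion, which flags about 1 in 20 groups by chance. Of these, 5 were WT Wy14643 replicate 1, which lay below the other treated hearts in log2 intensity for Zbtb16 (8.33, others 9.84 to 10.07), Fam107a (7.52, others 8.92 to 9.00), Timp4 (8.84, others 9.71 to 9.87), Mt2 (8.23, others 9.29 to 9.43) and Fkbp5 (6.52, others 8.11 to 8.42). KO control replicate 1 was high for Angptl4 (7.79, others 6.87 to 7.11) and for Acot1 (4.73, others 3.85 to 4.06). KO control replicate 5 was low for Abhd1 (6.31, others 6.86 to 6.95). KO Wy14643 replicate 4 was low for Oser1 (7.80, others 8.02 to 8.09), and KO Wy14643 replicate 3 was high for Pank1 (9.11, others 8.95 to 8.97). Fkbp5, Oser1 and Pank1 were picked after their values had been seen, so the tally cannot be set fairly against that rate.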

How the results depend on the processing

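The number of genes called in WT hearts was 5, and it was 15 with a brightness minimum of 100, 13 with the mean of all probe sets, 13 after a further quantile normalization, 41 with array weights, 14 with a trended and robust variance prior, 9 with the replicate block and 2 with WT arrays only, and 0 to 16 when 1 array was left out. In KO hearts the 6 calls became 1 without the brightness filter, 3 with the mean of all probe sets, 98 with array weights, 0 with only the groups compared and 0 with KO arrays only, and 0 to 28 when 1 array was left out. For WT minus KO the count of 0 became 1 with a brightness minimum of 100, 2 with the mean of all probe sets, 1 with array weights and 1 with the trended and robust prior, and 0 to 1 when 1 array was left out. Against the triglycerides leaving out 1 array gave 158 to 323, around 286. Same-numbered WT hearts deviated together with correlations of 0.155, 0.06 and 0.172, against -0.161 to 0.035 for WT hearts of unlike number. In KO hearts the ranges were -0.234 to 0.112 for the same number and -0.143 to 0.19 for unlike numbers. Whether same-numbered hearts share a batch was not tested. The replicate block gave 9 calls in WT, 7 in KO, 0 for the difference and 274 against the triglycerides. Acot1 was called in 13 of 16 alternatives, Abhd1 in 12, Frem2 and Mlycd in 11 each and Angptl4 in 7, and the cause of the losses was not tested. Some values near 0 changed sign against vehicle in WT hearts. Acadl was 0.07 with the mean of all probe sets, 0.00 after a further quantile normalization and 0.01 with the replicate block, and -0.02 to 0.04 when 1 array was left out. Lpl was -0.03 after that normalization. When 1 array was left out, Cpt1a ranged from -0.07 to 0.17, Acadm from -0.00 to 0.06, Cd36 from -0.02 to 0.04, Nr4a1 from -0.06 to 0.17, Mt2 from -0.05 to 0.47 and Dixdc1 from -0.35 to 0.07.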
